A study of Caenorhabditis elegans with 20 samples.

Results

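The genes of the proteasome were followed in somatic gonadal precursor cells and in whole animals of both sexes of *C. elegans* during the first larval stage. Members were taken by name, as every gene called *pas*, *pbs*, *rpt* or *rpn* with a number in the expression tables. The rule found 31 of 19861 genes, and all 31 were measured in all 8 groups. They comprised 7 *pas* genes (alpha ring), 7 *pbs* genes (beta ring), 6 *rpt* genes (ATPases) and 11 *rpn* genes (non-ATPases). RNA was sequenced from 20 samples that combined sex (male or hermaphrodite), tissue (sorted gonadal cells or unsorted cells of the dissociated whole animal) and time after feeding of starved hatchlings (9.5 or 15 hr), with 3 samples in each 9.5 hr group and 2 in each 15 hr group. The gonadal cells were Z1 and Z4 at 9.5 hr and their daughters at 15 hr, sorted for Venus expressed from the *ehn-3a* promoter by the integrated array rdIs4. Every group carried *xol-1(y9)*, which kills spontaneous XO males. The males were XX pseudomales made by the conditional allele *tra-2(ar221)* at its restrictive temperature, with *xol-1(y9)* and rdIs4, and so were not XO males. The hermaphrodites carried *xol-1(y9)* and rdIs4, except that the array was absent from the whole hermaphrodites of 9.5 hr. Whole-animal samples had not passed through the sorter, so sorting and tissue cannot be told apart. Those of the 9.5 hr hermaphrodites came from another strain than the sorted cells, so they were not aliquots of the sorted suspension.

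The proteasome degrades proteins that carry ubiquitin chains. Its barrel-shaped core particle is built of outer alpha rings, which gate the entrance, and inner beta rings, which hold the proteolytic sites. The regulatory particle caps the barrel: its ring of ATPases unfolds substrates and pushes them into the core, and its non-ATPase subunits bind and remove ubiquitin and hold the assembly together. In *C. elegans* the complex is needed in nearly all cells, and the ubiquitin receptor RPN-10 has a known role in hermaphrodite sex determination, where it acts on the sex determination protein TRA-2.

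Levels were given as FPKM, mapped fragments scaled to transcript length and sequencing depth, with 1 value per group pooled by the authors over its replicates. Levels can be set side by side between genes, but the spread between replicates and the depth behind a value are unknown. A difference between tissues or sexes was measured in 4 settings or pairs. It was therefore tested with limma over all 8 groups, with terms for tissue, sex and time. A difference within 1 setting is a description with no test. In bulk RNA of this kind, fewer cells of a type and less RNA per cell cannot be told apart. The 5 markers of the somatic gonad summed to 309 to 476 FPKM in the gonadal groups and to 46.1 to 55.7 FPKM in the whole-animal groups. Each was higher in gonadal cells in every setting except *ehn-3*, the gene whose promoter drove the sort, which was at 0.287 FPKM in hermaphrodite gonadal cells and 0.592 FPKM in whole hermaphrodites at 15 hr. The 26 markers of germline, muscle, intestine, neurons, hypodermis, pharynx and coelomocytes summed to 736 to 1349 FPKM in the gonadal groups against 3048 to 3752 FPKM in the whole-animal groups. Of the 26, 24 in males and 25 in hermaphrodites were lower in gonadal cells at 9.5 hr, and 25 and 26 were at 15 hr. The intestine marker *elt-2* was higher in gonadal cells at 9.5 hr. It was at 9.57 against 3.36 FPKM in males and 5.79 against 3.95 FPKM in hermaphrodites. None of the 26 markers was at 0 in the gonadal groups, and their part in the proteasome differences was not tested.

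All 31 genes were abundant. The lowest value of any member in any group was 91.4 FPKM and the highest was 335 FPKM. The median member ranked between the 95.3 and 97.5 percentile of all genes, depending on the group. Together the 31 genes made up 0.678% to 0.960% of all FPKM, with the lowest share in whole hermaphrodites and the highest in male gonadal cells, both at 15 hr. Male gonadal cells at 15 hr held the highest value of 30 of the 31 genes, where 15.1% of all genes tested had their highest value in that group. The exception was *rpt-5*, which was at 157 FPKM in hermaphrodite gonadal cells and 154 FPKM in male gonadal cells at 15 hr. Under the other scalings described below, male gonadal cells at 15 hr held the highest value of 18 to 24 members. They then held that of 10.2% to 12.6% of all genes tested. Whole hermaphrodites at 15 hr held the lowest value of 15 members and whole males at 9.5 hr that of 11, against 12.5% and 11.8% of all genes tested.

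**Figure D1:**
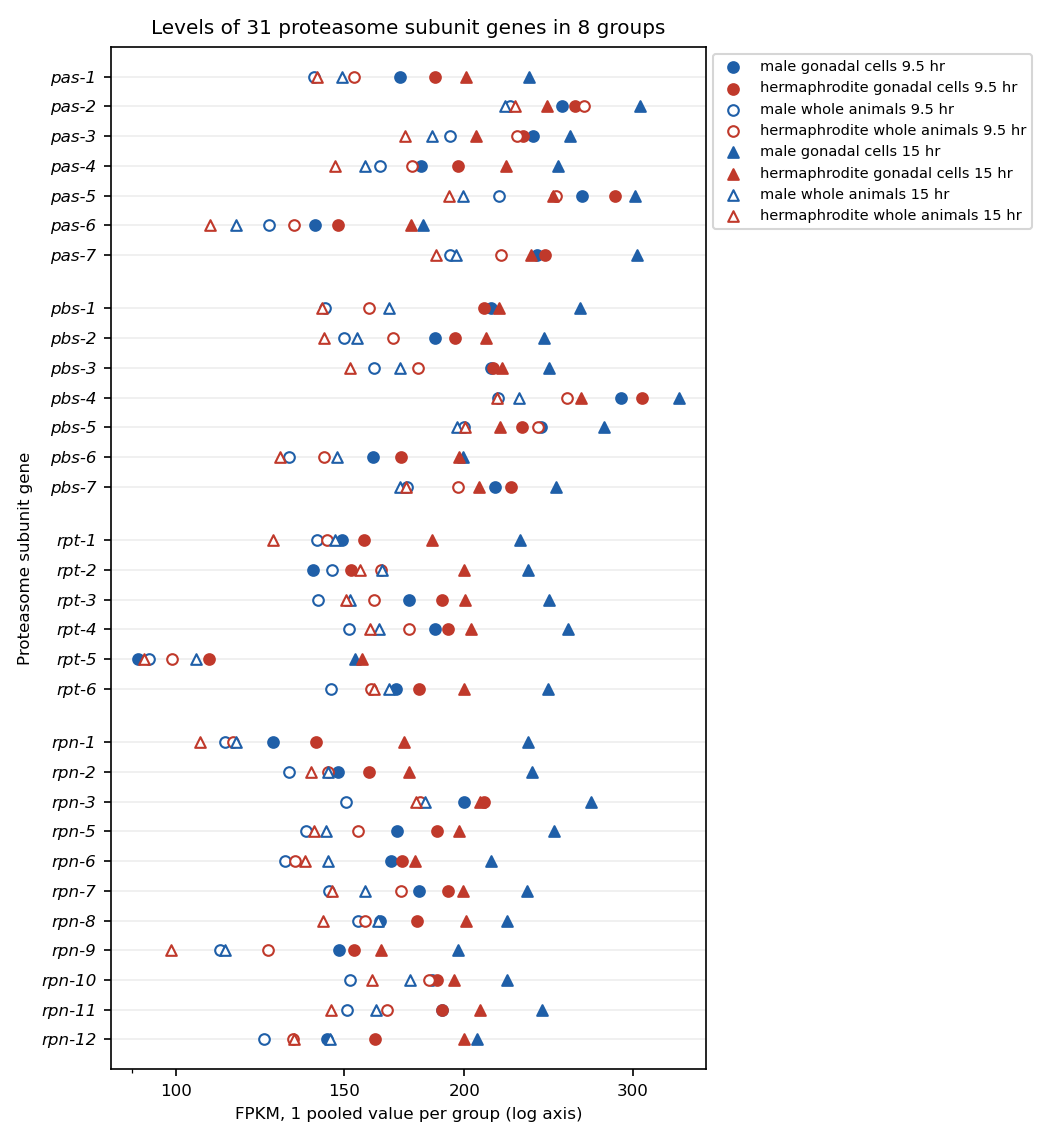
Level of each of the 31 proteasome subunit genes (rows, grouped as *pas*, *pbs*, *rpt* and *rpn*) in the 8 groups, as pooled FPKM on a log axis; filled symbols are gonadal cells, open symbols whole animals, circles 9.5 hr and triangles 15 hr. Values run from 91.4 to 335 FPKM, *rpt-5* lies lowest, and the filled blue triangle of male gonadal cells at 15 hr lies farthest to the right for 30 of 31 genes.

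The alpha ring genes, whose products form the gate of the core, spanned a range of levels. In male gonadal, hermaphrodite gonadal, male whole and hermaphrodite whole samples, in that order here and below, *pas-2* was at 253, 261, 223 and 267 FPKM at 9.5 hr and at 305, 244, 221 and 226 FPKM at 15 hr. The lowest alpha gene on average, *pas-6*, was at 139.7, 148, 125 and 133 FPKM at 9.5 hr and at 181, 176, 116 and 109 FPKM at 15 hr. Values of *pas-6* in gonadal cells lay above those in whole animals throughout, whereas *pas-2* was slightly lower in gonadal cells than in whole hermaphrodites at 9.5 hr. The other alpha genes lay between these on average.

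In the beta ring the most abundant gene was *pbs-4*, a subunit without catalytic activity, at 291, 307, 217 and 256 FPKM at 9.5 hr and 335, 264, 228 and 216 FPKM at 15 hr. The lowest on average was *pbs-6*, also non-catalytic, at 160.5, 172, 131 and 143 FPKM and then 199, 197, 147 and 129 FPKM. The catalytic subunits did not share a single level or pattern. For *pbs-1*, the subunit with caspase-like activity, the values were 213, 209.8, 143 and 159 FPKM at 9.5 hr and 264, 218, 167 and 142 FPKM at 15 hr, so that all 4 gonadal values exceeded all 4 whole-animal values. For *pbs-2*, with trypsin-like activity, they were 186, 195, 149.8 and 169 FPKM and then 242, 211, 155 and 143 FPKM, again without overlap. For *pbs-5*, with chymotrypsin-like activity, they were 241, 229.5, 200.03 and 239 FPKM and then 279.6, 218, 196 and 200.2 FPKM, and here gonadal and whole-animal values overlapped. The share of all genes tested without such overlap was not counted. Statements on overlap, here and below, are therefore description only.

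The median of the ATPase genes was below that of the alpha genes in every group, and below that of the beta genes in all but whole hermaphrodites at 15 hr. It ran from 143 FPKM in whole males at 9.5 hr to 239 FPKM in male gonadal cells at 15 hr, where that of the alpha genes ran from 174 to 258 FPKM. The highest ATPase gene on average, *rpt-4*, was at 186, 192, 152 and 175 FPKM at 9.5 hr and 257, 203, 163 and 159 FPKM at 15 hr. *rpt-5* was the lowest of all 31 genes in each of the 8 groups, at 91.4, 108, 93.7 and 99.0 FPKM and then 154, 157, 105 and 92.6 FPKM. The *rpt-5* values in gonadal cells at 15 hr stood well above its other 6 values.

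Among the non-ATPases, *rpn-3*, which encodes a structural subunit of the lid, was the most abundant, at 199.9, 209.6, 151 and 179.7 FPKM at 9.5 hr and 271, 208, 182 and 178 FPKM at 15 hr. The lowest, *rpn-9*, another lid subunit, was at 148, 154, 111 and 125 FPKM and then 197, 164, 112 and 99.0 FPKM. All 4 gonadal values of *rpn-9* exceeded its 4 whole-animal values. *rpn-1*, the base scaffold on which ubiquitin shuttle proteins dock, was at 126, 140.2, 113 and 115 FPKM and then 233, 173, 116 and 106 FPKM. The 15 hr gonadal values of *rpn-1* were the ones that stood apart.

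Gonadal cells were compared with whole animals to ask which genes were enriched in the gonadal lineage. By limma, 12 of the 31 genes (38.7%) were higher in gonadal cells at an adjusted p under 0.05 and 0 were lower. Among all 15213 genes tested, 30.1% were called higher and 39.5% lower. The difference was above 0 for 31 of 31 members (25 of 31 with groups scaled to the 90th percentile of all genes), with a median of 0.37 on the log2 scale and a range of 0.17 to 0.56, beside a median of -0.14 over all genes tested. Many of those genes are at low levels: over the 9677 genes with a mean of at least 10 FPKM the median was 0.30 and 43.99% were called higher, where 16 members were called, so that the members lay close to genes of higher level. The members' standard errors were 0.13 to 0.19. For 27 of the 31 genes the gonadal value exceeded the whole-animal value in all 4 settings, which held for 33.2% of all genes tested. *pas-2*, *pbs-5*, *rpt-2* and *rpt-5* were the exceptions. These counts are on the deposited scale. With groups scaled to the 90th percentile, 20 members in males and 11 in hermaphrodites were above 0 at 9.5 hr. At 15 hr they were 30 and 18.

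The differences depended on how the groups were scaled. Over all genes, gonadal cells had a lower median level than whole animals (3.49 to 4.44 against 9.03 to 9.91 FPKM) and a higher 90th percentile (104.2 to 125 against 89.2 to 96.0 FPKM). When each group was scaled to its 90th percentile, an alternative chosen after seeing the data, 0 members were called (18.8% of all genes tested were called higher), the median difference was 0.07 and 25 of 31 differences were above 0. When each group was centred on its median gene, 31 members were called higher with a median of 1.04 (47.2% of all genes). With all FPKM of a group set to the same sum, 6 were called with a median of 0.30 (27.6% of all genes). These scalings moved the median of all genes from -0.14 to -0.40, 0.53 and -0.21, respectively. The calls, though not the direction, also rested on all 4 settings: 0 members passed without the 9.5 hr males, without the 9.5 hr hermaphrodites or without the 15 hr males, and 1 passed without the 15 hr hermaphrodites, while 22.4%, 19.7%, 20.4% and 20.7% of all genes were still called higher. The members' median difference was then 0.42, 0.43, 0.30 and 0.34, with 31 of 31 above 0 in each.

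The called genes came from every subcomplex. Core genes called higher were *pbs-1* (log2 difference 0.56, SE 0.14, limma adjusted p 0.0117), *pas-1* (0.43, adjusted p 0.0347), *pbs-2* (0.43, adjusted p 0.0380), *pbs-3* (0.42, adjusted p 0.0304) and *pbs-6* (0.40, adjusted p 0.0394). *pas-1* was at 171, 187, 139 and 153 FPKM at 9.5 hr and 234, 201, 149 and 141 FPKM at 15 hr. *pbs-3* was at 213, 214, 161 and 179 FPKM and then 245, 219, 172 and 152 FPKM. In both genes the lowest gonadal value lay above the highest whole-animal value. In all, 5 of 14 core genes and 7 of 17 regulatory genes passed the test, and whether these shares differ was not tested.

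In the regulatory particle, *rpn-9* (0.56, SE 0.16, limma adjusted p 0.0191), *rpn-1* (0.54, SE 0.19, adjusted p 0.0413), *rpn-5* (0.47, adjusted p 0.0357), *rpn-6* (0.42, adjusted p 0.0276), *rpn-11* (0.40, adjusted p 0.0435), *rpn-12* (0.40, adjusted p 0.0424) and *rpt-3* (0.41, adjusted p 0.0464) were called higher. Most of these encode lid subunits, and *rpn-11* encodes the deubiquitinase that removes chains from substrates. *rpn-5*, a lid subunit, was at 170.4, 188, 137 and 155 FPKM at 9.5 hr and 248, 198, 143 and 139 FPKM at 15 hr. *rpn-11* was at 189.5, 189.8, 151 and 166 FPKM and then 241, 208, 162 and 145 FPKM. *rpn-12*, a lid subunit, was at 144, 161, 124 and 132 FPKM and then 206, 199.7, 145 and 133 FPKM. For *rpn-5* and *rpn-11* the gonadal and whole-animal values did not overlap, whereas the *rpn-12* value of male gonadal cells at 9.5 hr lay just under that of whole males at 15 hr. *rpt-3*, an ATPase, was at 175, 189, 141 and 161 FPKM and then 245, 200.3, 152 and 150.5 FPKM, without overlap.

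At the other end, *rpt-2* (log2 difference 0.17, SE 0.17, limma adjusted p 0.393), *pas-2* (0.18, adjusted p 0.323) and *pbs-5* (0.21, adjusted p 0.265) did not pass. The ATPase gene *rpt-2* was at 139, 152, 145 and 164 FPKM at 9.5 hr and 233, 200.1, 164 and 156 FPKM at 15 hr. Its gonadal values were below those of whole animals at 9.5 hr in both sexes and above them at 15 hr in both sexes. The loci of 4 of the 31 genes overlapped another gene (*pbs-4*, *rpn-11*, *rpt-4* and *rpt-6*), so reads from the overlapping gene may be included in their values.

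The median tissue difference was larger at 15 hr than at 9.5 hr in both sexes. At 9.5 hr, 29 of 31 genes were higher in gonadal cells of males (median log2 difference 0.29; 46.0% of all genes tested were higher) and 28 of 31 in hermaphrodites (median 0.18, or -0.041 with the 90th percentile scaling; 44.3% of all genes). Over the genes with a mean of at least 10 FPKM the medians of these settings were 0.20 and 0.23, the latter above that of the members. The whole hermaphrodites of 9.5 hr lacked rdIs4, so the array and tissue cannot be told apart in that setting. At 15 hr, 31 of 31 were higher in males (median 0.57; 47.5% of all genes) and 31 of 31 in hermaphrodites (median 0.45; 46.7% of all genes), where the genes of at least 10 FPKM had medians of 0.30 and 0.36. A difference of at least 1.5-fold was reached at 15 hr by 14 members in males and 7 in hermaphrodites, where 29.3% and 32.3% of all genes reached it, and by 0 members at 9.5 hr, where 23.8% and 24.9% of all genes did. The largest difference in males was that of *rpn-1* at 15 hr, at 2.02-fold. The largest in hermaphrodites was that of *rpt-5* at 15 hr, at 1.69-fold. In a limma fit with a tissue-by-time term, chosen after seeing the data, the change of the tissue difference was above 0 for 31 of 31 members (53.9% of all genes), with a median of 0.27, but 0 members passed and the lowest adjusted p was 0.239, while 83 of all genes (0.546%) passed.

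**Figure D2:**
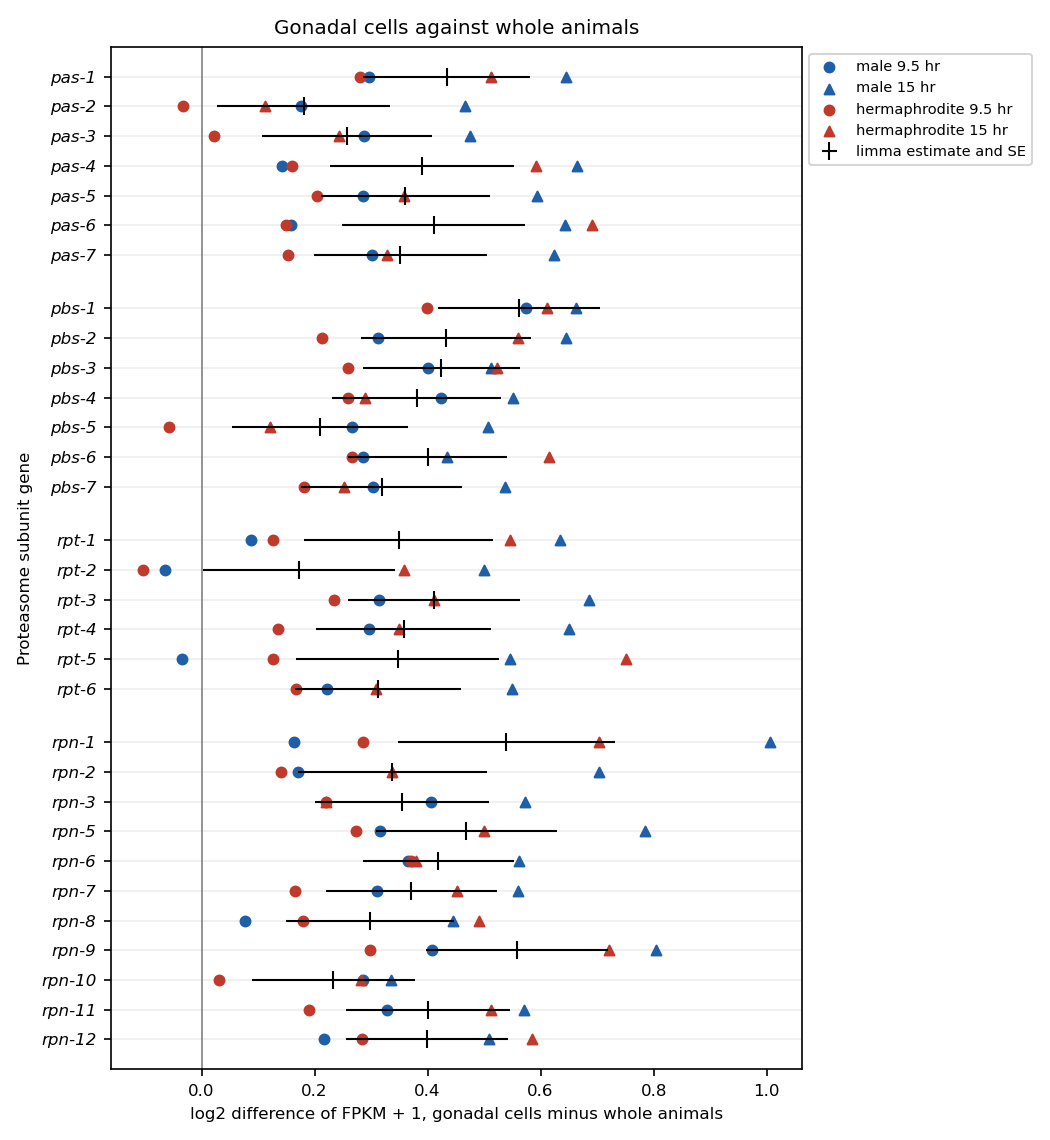
Difference between gonadal cells and whole animals for each of the 31 genes, in log2 units of FPKM + 1; coloured symbols are the 4 settings of sex and time, and black bars are the limma estimate with its standard error. On the deposited scale, triangles (15 hr) lie to the right of 0 for all genes, and estimates run from 0.17 for *rpt-2* to 0.56 for *pbs-1*.

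Males were compared with hermaphrodites to ask which genes differed by sex. No proteasome gene passed the limma test of sex over both tissues and times: 0 of 31 members were called (0% of all genes tested), the lowest adjusted p of a member was 0.928, and 0 members had an unadjusted p under 0.05, where 897 of 15213 genes did. The largest coefficients were those of *rpt-1* (0.10, SE 0.17), *pbs-1* (0.10, SE 0.14) and *rpn-1* (0.09, SE 0.19). *rpt-1*, an ATPase, was at 149, 157, 140.3 and 144 FPKM at 9.5 hr and 228, 185, 147 and 126 FPKM at 15 hr, so that males were lower at the earlier time and higher at the later one. The same held for *rpn-1*, but not for *pbs-1* in gonadal cells at 9.5 hr, where the male value was slightly the higher.

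By setting, the members moved together in small steps. At 9.5 hr, males were above hermaphrodites for 3 of 31 genes in gonadal cells (median log2 difference -0.08; 51.4% of all genes tested were higher) and for 0 of 31 in whole animals (median -0.16; 46.2%). At 15 hr they were above for 30 of 31 genes in gonadal cells (median 0.27; 56.3%), or for 27 with a median of 0.16 at the same sum and 24 with a median of 0.086 when centred on the median gene, and for 28 of 31 in whole animals (median 0.09; 51.7%). Male and hermaphrodite gonadal cells of 15 hr also differed in markers of other cell types, which summed to 1349 FPKM in males and 785 FPKM in hermaphrodites with 23 of 26 higher in males, and the part of these in the sex difference was not tested. At 9.5 hr the same sums were 938 and 736 FPKM. The whole-animal hermaphrodites of 9.5 hr lacked rdIs4, so that the array and sex cannot be told apart in that pair.

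For 25 of 31 genes the male value was below the hermaphrodite value in both tissues at 9.5 hr and above it in both tissues at 15 hr, a pattern of 5.75% of all genes tested. The members without it were *pas-2*, *pas-3*, *pbs-1*, *pbs-5*, *pbs-7* and *rpt-5*. The pattern includes the whole-animal pair of 9.5 hr, in which the array and sex cannot be told apart. Under the other scalings it held for 24 members (same sum), 18 members (median gene) and 27 members (90th percentile). The shares of all genes were then 5.05%, 4.86% and 6.42%. In a limma fit with a sex-by-time term, chosen after seeing the data, the change in the sex difference was above 0 for 31 of 31 members (56.6% of all genes), with a median of 0.30, but 0 members and 0 of all genes passed. The steps were small: 0 members were at least 1.5-fold higher in males in any tissue or time, where 10.2% (9.5 hr) and 20.0% (15 hr) of all genes were so in the gonad and 5.77% and 5.03% in the whole animal.

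**Figure D3:**
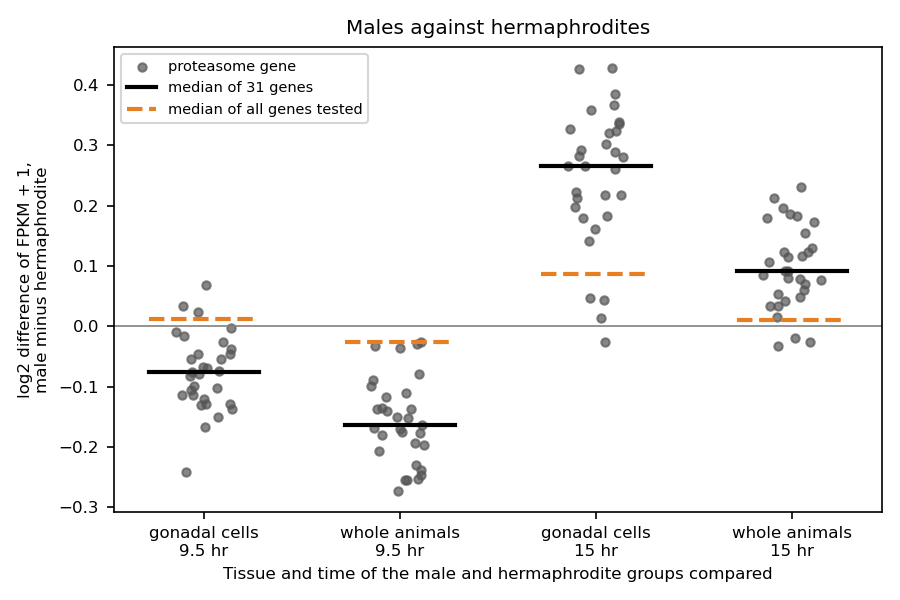
Difference between males and hermaphrodites for each of the 31 genes (points, spread sideways at random) in each tissue and time, in log2 units of FPKM + 1; black lines are the median of the 31 genes and dashed lines the median of all genes tested. The black lines lie at -0.08 and -0.16 at 9.5 hr and at 0.27 and 0.09 at 15 hr, in gonadal cells and whole animals respectively.

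The times came from separate normalization runs, so time and run cannot be told apart, and the values are set side by side without a test. In male gonadal cells all 31 genes were higher at 15 hr (median log2 difference 0.38; 50.7% of all genes tested were higher), 5 of them by at least 1.5-fold, which 20.8% of all genes reached. In hermaphrodite gonadal cells 23 of 31 were higher (median 0.08; 50.8% of all genes). In whole males 24 of 31 were higher (median 0.09; 46.0% of all genes), and in whole hermaphrodites 3 of 31 were higher (median -0.18; 42.3% of all genes). In these 3 groups 0 members were at least 1.5-fold higher, against 15.7%, 14.6% and 14.4% of all genes. For male gonadal cells the median was 0.16 with 25 of 31 genes higher when groups were scaled to the 90th percentile. The median for hermaphrodite gonadal cells was -0.17 under the same scaling and 0.013 at the same sum, and that for whole males was -0.010 when centred on the median gene and 0.0010 under the 90th percentile scaling.

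Regulatory genes gained on core genes between the times in every tissue and sex. The median log2 difference of the 17 regulatory genes and the 14 core genes was 0.48 and 0.29 in male gonadal cells, 0.13 and -0.01 in hermaphrodite gonadal cells, 0.13 and 0.00 in whole males and -0.12 and -0.24 in whole hermaphrodites. The ratio of the geometric mean level of regulatory genes to that of core genes, which no rescaling of a whole group changes, was 0.752, 0.777, 0.791 and 0.773 at 9.5 hr and 0.882, 0.873, 0.854 and 0.843 at 15 hr. None of the 4 earlier ratios reached any of the later ones. The members also lay closer together in gonadal cells at the later time: the SD of their log2 levels was 0.349 and 0.310 at 9.5 hr and 0.227 and 0.167 at 15 hr in males and hermaphrodites, beside 0.292 and 0.339 and then 0.264 and 0.302 in whole animals. Relative to the other members, *rpt-5* (0.38), *rpn-1* (0.34) and *rpt-2* (0.31 on the log2 scale) gained most in gonadal cells, while *pas-3* and *pas-5* (both -0.28) and *pbs-4* (-0.26) lost most.

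Core and regulatory genes also differ in transcript length, which was set beside the time difference. Exonic length ran from 801 to 1059 bases in core genes (median 881) and from 855 to 3171 bases in regulatory genes (median 1474). Spearman's rho between length and the time difference was 0.672, 0.365, 0.279 and 0.483 over the 31 members in male gonadal, hermaphrodite gonadal, male whole and hermaphrodite whole samples. Within the core genes alone it was 0.451, 0.396, -0.343 and -0.147, and within the regulatory genes alone 0.409, -0.208, -0.0833 and 0.145, so that a positive rho in both particles was seen in male gonadal cells and not in the other 3 groups. Over the 14149 genes with a length it was 0.228, 0.119, 0.0959 and 0.140, and over the 4628 genes with a mean of at least 50 FPKM it was 0.444, 0.190, 0.0685 and 0.140. Genes of 1 sample share their libraries and are not independent, and the part of length in the shift from core to regulatory genes was not tested.

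**Figure D4:**
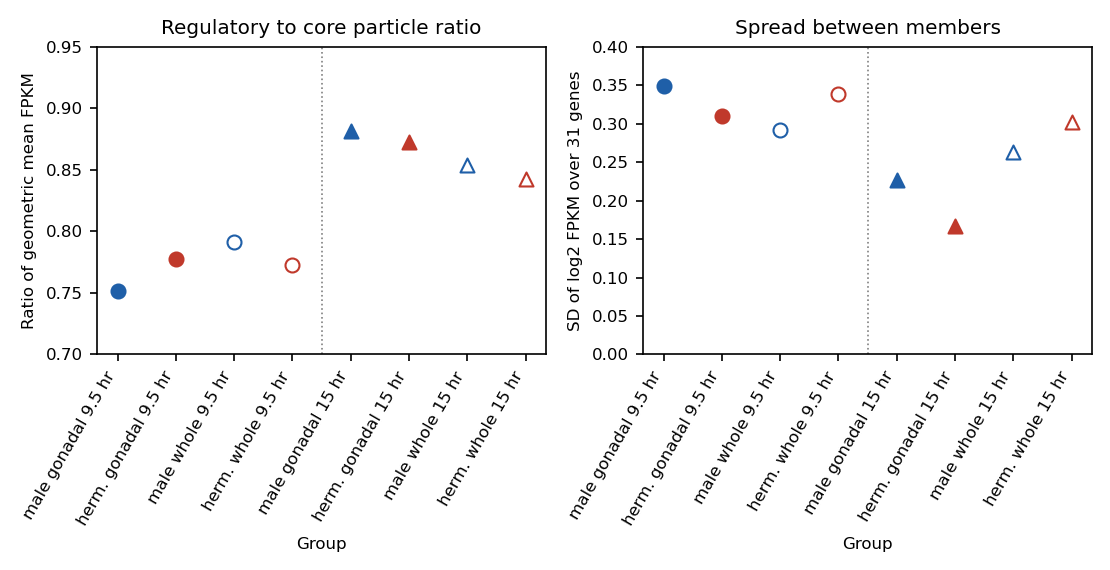
Left, ratio of the geometric mean FPKM of the 17 regulatory genes to that of the 14 core genes in each group (the axis does not start at 0); right, SD of log2 FPKM over the 31 genes in each group; symbols as in the plot of levels, and the dotted line separates the times. The ratio is 0.752 to 0.791 at 9.5 hr and 0.843 to 0.882 at 15 hr, and the spread is smallest in gonadal cells at 15 hr.

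The tables list more subunit genes under sequence names, which the naming rule could not reach. *rpn-6.2* (listed as F59B2.5, ce10 chromosome III, 8999751 to 9002487) is annotated by name as a second copy of the lid subunit gene *rpn-6* (chromosome III, 6959060 to 6961971), known today as *rpn-6.1*. *rpn-13* (listed as C56G2.7, chromosome III, 6338456 to 6341873) encodes, by its name, a ubiquitin receptor of the regulatory particle. Both were added after the tables were seen, by matching sequence names to the RefSeq gene table. *rpn-6.2* was at 133 and 118 FPKM in male and hermaphrodite gonadal cells and at 7.67 and 10.5 FPKM in whole animals at 9.5 hr, and at 55.4, 68.2, 5.76 and 6.81 FPKM at 15 hr. Its gonadal level was 17.4-fold and 11.2-fold that of whole animals at 9.5 hr and 9.61-fold and 10.01-fold at 15 hr, in males and hermaphrodites (limma log2 difference 3.38, SE 0.18, adjusted p 0.000111), and it was called under every alternative run.

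*rpn-6* itself was at 168, 172, 130.1 and 133 FPKM at 9.5 hr and at 213, 178, 144 and 136 FPKM at 15 hr. The level of *rpn-6.2* was thus 0.795 and 0.686 of that of *rpn-6* in gonadal cells at 9.5 hr and 0.260 and 0.384 at 15 hr, but 0.0400 to 0.0791 in whole animals. *rpn-13* was at 91.6, 90.2, 66.4 and 69.7 FPKM and then 104.6, 106.5, 79.6 and 69.6 FPKM (limma log2 difference 0.45, SE 0.13, adjusted p 0.0185), a difference within the range of the 31 members, which was not called with groups scaled to the 90th percentile (0.15) or with any 1 setting left out. How reads that match both *rpn-6* copies were assigned is not given in the sources used here.

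**Figure D5:**
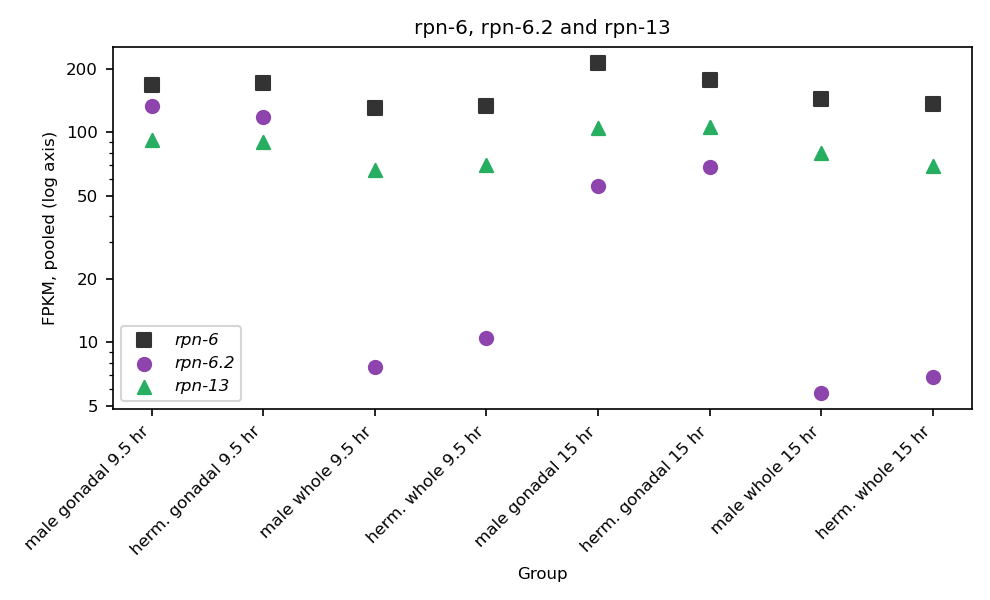
Pooled FPKM (log axis) of *rpn-6*, *rpn-6.2* and *rpn-13* in the 8 groups. *rpn-6.2* lies at 55.4 to 133 FPKM in gonadal cells and at 5.76 to 10.5 FPKM in whole animals, while *rpn-6* and *rpn-13* change far less between groups.

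Genes that work with the proteasome were described by lists, whose counts are to be read beside the 30.1% of all genes called higher. For counts under the 90th percentile scaling that share was 18.8%, and for those centred on the median gene it was 47.2%. The list drawn up for assembly and activation held 4 tested genes, *psme-3*, *psmd-9*, *aip-1* and *dss-1*. Of these, 2 were called higher in gonadal cells and 0 lower (median log2 difference 0.72): *psme-3*, a core activator (0.90, SE 0.13, limma adjusted p 0.00123), and *psmd-9*, named for an assembly chaperone of the base (0.92, SE 0.17, adjusted p 0.00345). Of 5 regulators of proteasome gene transcription, 3 were called higher (median 0.42), led by *ddi-1*, whose protease activates the transcription factor SKN-1A (1.16, adjusted p 0.000631). *skn-1* itself was at 166, 141, 128 and 137 FPKM at 9.5 hr and 153, 137, 107 and 103.6 FPKM at 15 hr and did not pass (0.33, adjusted p 0.0715). Of the deubiquitinases that sit on the proteasome, *usp-14* (0.68, adjusted p 0.0145) and *ubh-4* (0.70, adjusted p 0.0120) were called, among 3 of 11 genes of the shuttle, p97 and deubiquitinase list (median 0.37). With groups scaled to the 90th percentile the calls in these lists were 2 of 4, 1 of 5 and 0 of 11, with medians of 0.42, 0.12 and 0.09.

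Upstream of the proteasome, 0 of 4 genes for ubiquitin and its activating enzyme passed (median -0.04, and 0.63 with 4 called higher when centred on the median gene). The list of conjugating enzymes included the *uev* variants, of which *uev-3* was called higher and *uev-2* lower. Of its 22 genes tested, 12 were called higher and 2 lower (median 0.40, and 7 and 3 under the 90th percentile scaling). They held the widest range: *ubc-22* was at 68.7, 73.4, 16.6 and 15.6 FPKM at 9.5 hr and 27.5, 36.1, 11.1 and 9.78 FPKM at 15 hr (log2 difference 1.79, limma adjusted p 0.000285), whereas *ubc-17* was at 2.90, 2.63, 25.3 and 22.03 FPKM and then 2.83, 2.13, 27.7 and 28.5 FPKM (-2.89, adjusted p 0.000111). Values are also given for complexes with subunits related to those of the lid. All 6 genes of the COP9 signalosome were called higher (median 0.72; 4 of 6 and 0.42 under the 90th percentile scaling), and 8 of 10 genes of the translation initiation factor eIF3 (median 0.44; 0 of 10 and 0.13). Of the 8 genes of the CCT chaperonin, a complex unrelated to the lid, 0 were called and 8 were above 0 (median 0.29; -0.02 under the 90th percentile scaling and 0.96 with 8 called when centred on the median gene).

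The 31 genes lay on every autosome, with 10 on chromosome I, 7 on II, 6 on III, 3 on IV and 5 on V. The X chromosome held 0 of them, and 15.4% of all genes tested.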

How the data were processed

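The authors sequenced rRNA-depleted total RNA without poly(A) selection, aligned reads with TopHat 1.4.1 to ce10, and deposited FPKM, pooled per group by Cuffdiff 2.1.1 in 1 run per time. CASAVA 1.8 and Picard 1.56 are also named in the submitters' processing notes. The deposited tables also hold the authors' own log2 fold changes, test statistics, p-values and q-values, which were not used. The 19 entries whose name joins several genes with a comma were kept as they stood. The 1 unnamed entry, at most 0.293% of a group's FPKM, was left out.

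Strain names in the tables were assigned to groups from the study's methods. Levels were transformed to log2(FPKM + 1), which understates the change of low genes, and the 15213 genes with a mean of at least 1 FPKM over the 8 groups were fitted with limma 3.58.1 (R 4.3.3) on tissue, sex and time. P-values are two-sided and Benjamini-Hochberg adjusted over all genes, with a threshold of 0.05. The residual spread (4 residual and 2.67 prior degrees of freedom) is what the terms for tissue, sex and time leave over the 8 groups, not that of replicates. It includes any change of the tissue or sex difference between settings, and it is the same for both coefficients of a gene. The gonadal and whole-animal values of a setting were not fitted as pairs. The fit was tested on simulated data. Members named with 8 values were the highest and lowest of each subcomplex, the 3 highest and lowest tissue coefficients, the 3 largest sex coefficients, the catalytic subunits and the called members. Members and lists were chosen with earlier results of these data known. Alternatives were pseudocounts of 0.1 and 5 FPKM, no filter and a filter at 10 FPKM, 3 scalings, a variance trend, interaction terms, and leaving out settings. Transcript lengths came from a later build and were available for 93.0% of genes tested.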

Additional observations from a re-analysis of the deposited data

Results flagged for a closer look

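The sex difference of 25 of the 31 genes was below 0 at 9.5 hr and above 0 at 15 hr in both tissues, a pattern of 5.75% of all genes tested. The count was 18 when groups were centred on the median gene, beside 4.86% of all genes. The pattern stands out because the members of the earlier and later comparison lay on opposite sides of 0. The sex-by-time term of limma, fitted over all genes, was above 0 for 31 of 31 members (56.6% of all genes) with a median of 0.30. By this term 0 members and 0 of all genes passed at an adjusted p under 0.05. At an unadjusted p under 0.05, 0 members passed, where 328 of 15213 genes did.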

How the results depend on the processing

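The number of proteasome genes called between gonadal cells and whole animals was 12, where 4585 of 15213 genes tested were called higher. With pseudocounts of 0.1 and 5 FPKM it became 9 (4420 of all genes called higher) and 21 (4722). With a variance trend it was 25 (4848), and with a tissue-by-time term 19 (5080). With no filter it was 16 (4582 of 19861 genes), and with a filter at 10 FPKM also 16 (4257 of 9677). Rescaling gave 31 when centred on the median gene (7176), 6 with each group at the same sum (4194) and 0 at the 90th percentile (2862). Leaving out a setting gave 0 to 1 (2992 to 3401), which also leaves fewer groups to fit. The median tissue difference, centred on the median gene and scaled to the 90th percentile, was 0.84 and 0.041 for males at 9.5 hr, 0.68 and -0.041 for hermaphrodites at 9.5 hr, 1.29 and 0.20 for males at 15 hr (0.40 at the same sum) and 1.37 and 0.078 for hermaphrodites at 15 hr. Under the 90th percentile scaling *pas-2* (-0.12), *pas-3* (-0.047), *pbs-5* (-0.10), *rpn-8* (-0.0056), *rpn-10* (-0.071) and *rpt-2* (-0.13) turned below 0. Centring on the median gene gave 0.086 for the sex difference in gonadal cells at 15 hr, 0.24 for the change of the sex difference with time and 0.56 for that of the tissue difference. For time, male gonadal cells were at 0.16 (90th percentile), hermaphrodite gonadal cells at 0.33 (median gene) and -0.17 (90th percentile), whole males at -0.010 and whole hermaphrodites at -0.35 (median gene). The cause of these shifts was not tested. With a setting left out, the sex coefficient ran from -0.056 to 0.26 for *rpt-1*, -0.064 to 0.26 for *pbs-1* and -0.090 to 0.28 for *rpn-1*. Of 116 alternative values of the main comparisons, 89 kept their direction and stayed within 1.5 times the count, or within 1 SD between members of the median. Part of these could not have changed. Every member passed each filter, so the filters left the medians by setting as they were. The sex calls were 0 in every alternative, with 0 of all genes called. The tally is therefore not a measure of stability. The pooled values carry no replicate spread and no depth, so single samples could not be left out. No paired analysis was possible by replicate because the deposited columns hold 1 pooled value per group and carry no replicate numbers. The pooled gonadal and whole-animal values of each setting could have been fitted as pairs, but were not.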
